A study of Homo sapiens with 2 samples.

Results

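The retinoblastoma family of pocket proteins, the MuvB complex and the transcription factors that share or follow MuvB decide together whether cell cycle genes are silent or transcribed. Members of this circuit were chosen by name, 10 of the 21743 genes that could be named on the arrays. They were the pocket protein genes RB1, RBL1 and RBL2, the MuvB subunit genes LIN9, LIN37, LIN52 and LIN54, and the genes of the activating partners MYBL1, MYBL2 and FOXM1. The choice rests on the names of the genes and uses no measured value, although earlier results of these arrays were known when it was made.

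MRC-5 is an established line of fibroblasts from human fetal lung. The study asked which genes of these cells depend on periostin, a matricellular protein, and compared cells given control siRNA with cells given periostin siRNA, each at 10 nM for 48 h. For each condition the RNA of 1 culture was read on its own Agilent array, labelled with Cy3 alone, and the slide was the same for both. Both groups share the line and the transfection, and differ by label in the siRNA alone. With 1 array per condition no test between the conditions was possible, no p-value is given, and no difference below has a replicate check on the arrays. Of the members, the study also measured MYBL2 and FOXM1 by quantitative PCR in independent experiments on MRC-5 cells. It reported both as lower after periostin knockdown. RNA of a whole culture was measured, so fewer cells that express a gene and less of its RNA per cell cannot be told apart.

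In resting cells the pocket proteins p107 (RBL1) and p130 (RBL2) join E2F4 or E2F5, a DP protein and MuvB in the DREAM complex, which represses genes of the cell cycle. RB, the product of RB1, acts mainly on the activating E2F factors outside this complex. When cells enter the cycle, cyclin-dependent kinases phosphorylate the pocket proteins, MuvB lets go of them and takes up B-MYB (MYBL2) and later FOXM1, and the complex now activates the genes of G2 and mitosis. MuvB itself is thus common to the repressor and the activator. A-MYB, the product of MYBL1, is a close relative of B-MYB known best from germ cells.

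The promoter sequences of the pocket protein pair RBL1 and RBL2, of MYBL2 and of LIN52 are shown because the circuit is known to act on promoters of its own genes, and because RBL1 and RBL2 differed in direction on the arrays. RefSeq windows of build GRCh38.p14, from 250 bases before to 50 bases after a transcript start, were matched by symbol for 8 of the 10 members, with 13 windows in all. FOXM1 and MYBL1 had no matched window. The 250 bases before the start are printed 5′ to 3′, and capitals mark every match to the motifs searched on both strands: the CHR element of G2 and mitosis genes (TTTGAA or TTCGAA), E2F sites (TTCCCGC and, as further forms, TTCGCGC as well as TTGGCGC and also TTGCCGC), the NF-Y box (CCAAT) and a shorter E2F core (TCCCGC), which overlaps the first of the E2F sites and was added after the windows had been seen. RBL1 lies at chr20:37095998-37096247 on the minus strand, RBL2 at chr16:53434221-53434470, MYBL2 at chr20:43666864-43667113 and LIN52 at chr14:74084706-74084955, the last 3 on the plus strand.
RBL1: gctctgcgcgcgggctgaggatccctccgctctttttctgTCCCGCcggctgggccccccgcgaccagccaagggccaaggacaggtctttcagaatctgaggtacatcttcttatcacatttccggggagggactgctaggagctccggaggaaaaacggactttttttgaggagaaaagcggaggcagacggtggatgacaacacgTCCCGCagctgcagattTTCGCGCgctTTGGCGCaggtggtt
RBL2: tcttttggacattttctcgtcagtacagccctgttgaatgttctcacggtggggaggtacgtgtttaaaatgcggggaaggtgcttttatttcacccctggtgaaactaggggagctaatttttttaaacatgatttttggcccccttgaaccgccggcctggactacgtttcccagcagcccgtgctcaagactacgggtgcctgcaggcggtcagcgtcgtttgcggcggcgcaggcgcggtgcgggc
MYBL2: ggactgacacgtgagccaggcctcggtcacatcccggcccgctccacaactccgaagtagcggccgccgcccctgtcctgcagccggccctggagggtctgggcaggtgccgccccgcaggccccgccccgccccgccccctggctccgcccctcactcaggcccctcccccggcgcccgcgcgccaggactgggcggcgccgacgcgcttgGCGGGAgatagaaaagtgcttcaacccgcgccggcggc
LIN52: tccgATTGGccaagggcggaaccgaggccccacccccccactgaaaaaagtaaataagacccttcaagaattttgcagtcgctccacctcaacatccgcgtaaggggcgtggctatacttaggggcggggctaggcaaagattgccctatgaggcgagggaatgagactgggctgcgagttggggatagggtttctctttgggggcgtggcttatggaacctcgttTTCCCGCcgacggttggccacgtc

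The RBL1 window held 2 E2F matches, TTCGCGC at -25 to -19 and TTGGCGC at -15 to -9 from the start, and 2 matches to the shorter core. The first RBL2 window held no E2F match, and its single CHR match lay after the start. MYBL2 matched none of the E2F, CHR or NF-Y motifs, but its window held the shorter core 2 times, at -38 to -33 and again after the start. LIN52 matched an E2F site at -24 to -18 and an NF-Y box near the far end of the window. Of the 13 member windows, 3 held an E2F match, 5 a CHR match, 3 an NF-Y match and 8 the shorter E2F core. Windows of a gene can overlap, and both LIN54 windows hold the same CHR and core matches, which are thus counted 2 times. Over all 35116 windows the shares were 13% for E2F, 16.4% for CHR, 34.6% for NF-Y and 26.9% for the core. The RB1 window belongs to an inner transcript start, 172699 bases from the first base of the gene, and says nothing of the main RB1 promoter. A match describes letters in a window and is no evidence of binding.

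**Figure D1:**
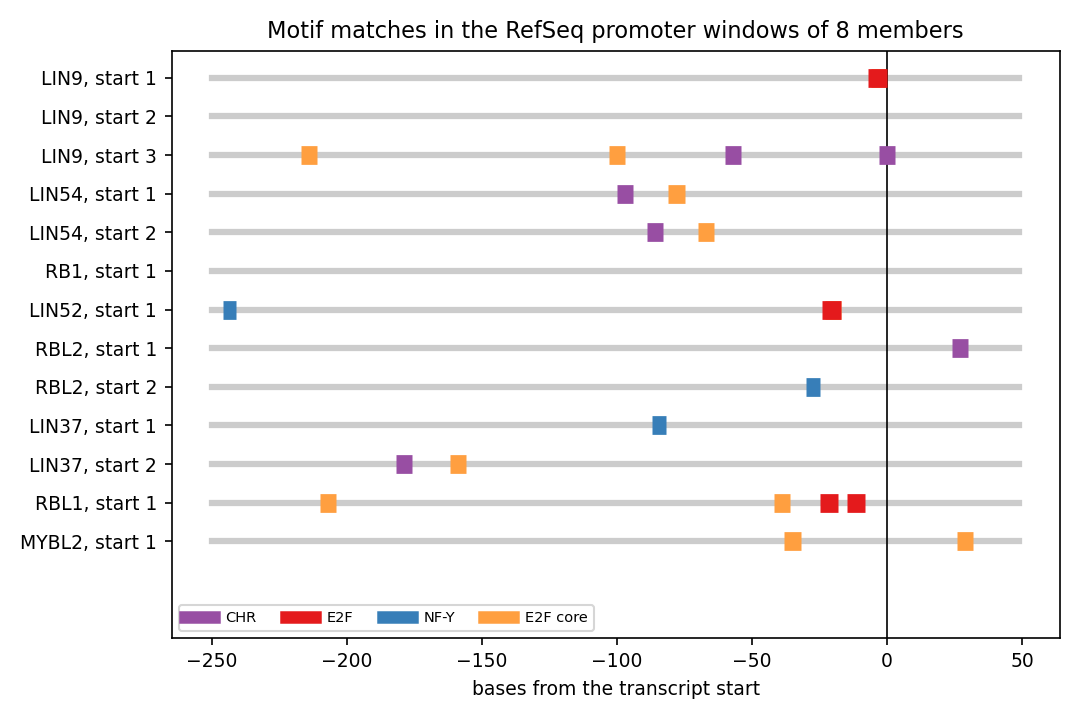
Each line is a RefSeq promoter window of a member, plotted by distance in bases from its transcript start, and each coloured block is a motif match on either strand; genes with several starts have several lines. The 2 E2F matches of RBL1 and those of LIN52 and LIN9 lie within 25 bases before the start, whereas neither RBL2 window holds an E2F or E2F core match.

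The 10 members were measured by 13 probes on 22 spots of each array. Values are the processed signal of the scanner, scaled so that both arrays have the same 75th percentile, and the level of a gene is that of its brightest probe. This probe passed the background flag of the scanner software on each array for every member, and no member spot carried an outlier flag. The error is the SD over the spots for the probe printed 10 times, that of RB1, and otherwise the error that the scanner software propagates for a single spot, which is about 0.20 on the log2 scale. It covers the spots of 1 slide and not the spread between cultures. Signals of different probes depend on the probe and are not set against each other. POSTN, the target of the siRNA, had a signal of 2639 in control cells and 280 after its knockdown.

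Of the fibroblast markers 10 of 10 passed the background flag on each array, with log2 ratios from -0.90 for PDGFRA to 0.83 for LUM, and their summed signal was 370935 in control cells and 329021 in knockdown cells. Of 5 epithelial markers 3 were measured, with a summed signal of 239 and 537. EPCAM gave 34.6 and 135 and KRT19 gave 167 and 342, while CDH1 and KRT5 were below background on both arrays. Of 5 endothelial markers 4 were measured, with a summed signal of 5591 and 5306, nearly all of it from TEK at 5458 and 5176, and PECAM1 was below background. Of 7 immune markers 4 were measured, with a summed signal of 322 and 605, most of it from CD14 at 287 and 549. LAPTM5, HLA-DRA and MS4A1 were below background. CD74 and CD3E, like the endothelial marker KDR, passed the flag on 1 array alone and have only a bound. The part of these markers in the ratios of the members was not tested. The 7 reference genes had log2 ratios between -0.30 and 0.30.

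All of the activating partners were lower with periostin siRNA, by more than 2-fold each, except that MYBL2 was at a log2 ratio of -0.79 under the normexp background correction. The MYBL1 signal was 403 in control cells against 109 in knockdown cells, a log2 ratio of -1.88 ± 0.21. Of the 16052 genes with a ratio, 1.90% had a lower ratio than MYBL1. The MYBL2 signal, from a dimmer probe, was 75.9 in control cells against 25.9 in knockdown cells, a log2 ratio of -1.55 ± 0.23. That of FOXM1, a forkhead factor that drives the genes of mitotic entry, was 511 and 197, a log2 ratio of -1.38 ± 0.20. These differences exceed the spot error 6 times or more, and the arrays placed the 3 genes among the lowest 3.68% of all genes measured. Their order among themselves is not settled, since MYBL1 minus MYBL2 was -0.33 ± 0.31, MYBL2 minus FOXM1 was -0.18 ± 0.31 and MYBL1 minus FOXM1 was -0.50 ± 0.29.

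A second MYBL1 probe, designed on another transcript (NM_001294282), was much dimmer, with 19.2 in control cells and 6.53 in knockdown cells, where it failed the background flag. Set against the lowest signal that passed this flag there, it was lower by at least 2.47-fold. Both MYBL1 probes thus lay in the same direction, and the size rests on the brighter of them.

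The pocket protein genes differed in direction. RB1 had a signal between 1557 and 1841 (median 1748) over its 10 spots with control siRNA and between 841 and 950 (median 913) with periostin siRNA. These are repeat spots of 1 probe and not replicates of a condition. The RB1 log2 ratio was -0.93 ± 0.04 (SD over 10 spots), which ranged from -1.01 to -0.88 between spots. RBL1 went from 111 to 61.6, a log2 ratio of -0.86 ± 0.21. RBL2 went the other way, from 427 to 540, a log2 ratio of 0.34 ± 0.20. Thus the genes of RB and p107 were lower by about the same factor, 1.90 and 1.81, while that of p130, the pocket protein known to dominate in resting cells, was 1.27-fold higher. The RBL2 log2 ratio exceeded that of RBL1 by 1.20 ± 0.29 and that of RB1 by 1.27 ± 0.21, whereas RB1 minus RBL1 was -0.07 ± 0.21. Under the normexp background correction RB1 was at -0.86 and RBL1 at -0.48, so their likeness depends on the setting. RBL2 minus RBL1 was then 0.79. On its own the RBL2 log2 ratio lies within 2 spot errors of 0, and 29.2% of all genes had a higher ratio.

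RBL1 too had a second probe, designed on another transcript variant (NM_183404). It gave 15.9 in control cells and 5.28 in knockdown cells, where it failed the background flag, and was lower by at least 2.04-fold. The processed signals of this probe had a ratio of 0.333, past the 3-fold threshold of the study, but the lower of them is at background level.

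**Figure D2:**
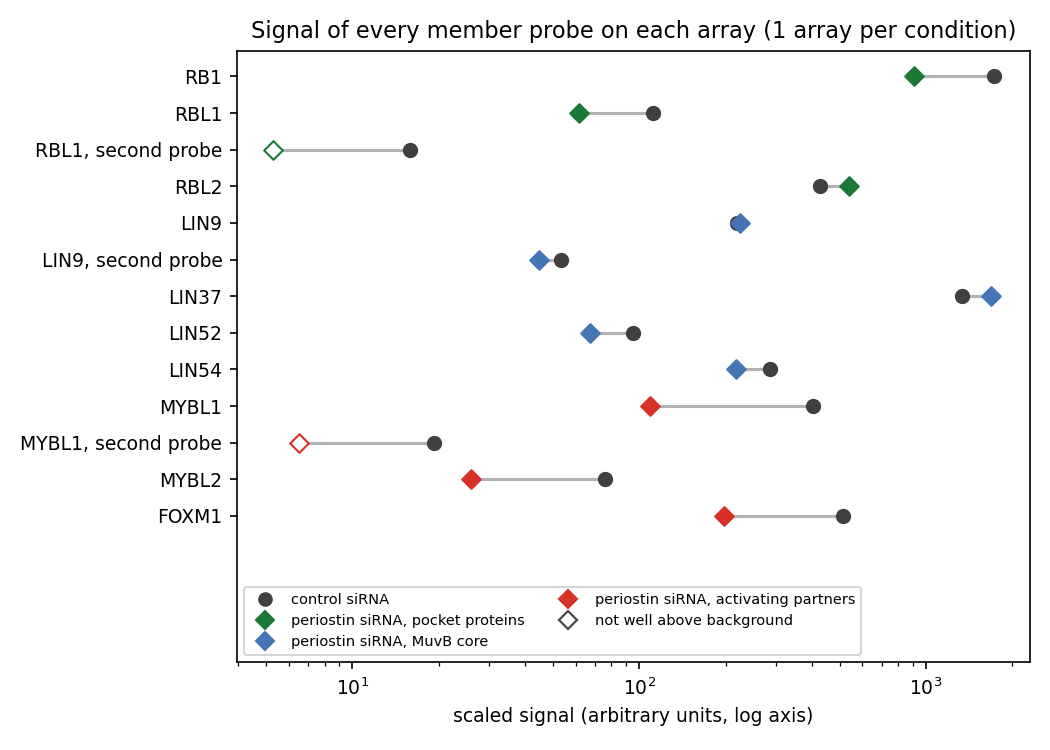
Scaled signal (log axis, arbitrary units) of each of the 13 member probes, with circles for the control siRNA array and diamonds for the periostin siRNA array; open symbols were not well above background. The gap is widest for the MYBL1, MYBL2 and FOXM1 probes and the dim second probes of RBL1 and MYBL1, and it turns to the right for RBL2 and LIN37.

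The MuvB genes were within 1.42-fold of their control levels, with ratios on both sides of 0. LIN52, whose phosphorylation by DYRK1A lets MuvB bind the pocket proteins, gave 95.4 in control cells and 67.2 in knockdown cells, a log2 ratio of -0.51 ± 0.21. LIN54, the subunit that binds the CHR element in DNA, went from 286 to 217, a log2 ratio of -0.40 ± 0.20. LIN37, a subunit needed for repression by DREAM, went from 1333 to 1688, a log2 ratio of 0.34 ± 0.20. The LIN37 log2 ratio exceeded that of LIN52 by 0.85 ± 0.29. On their own the LIN37 and LIN54 log2 ratios lie within 2 spot errors of 0. LIN9, the scaffold that contacts B-MYB, gave 220 and 225, a log2 ratio of 0.03 ± 0.20, and its dimmer second probe gave 53.5 and 44.8, a log2 ratio of -0.26 ± 0.22. The LIN9 probes differ in sign and neither is far from 0, so LIN9 has no direction here, and its sign also changed under 4 of the alternative settings.

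The spot errors can be compared with the scatter of spots that were printed 10 times. Among the 50 such probes nearest in brightness to each member probe, the SD of the log2 ratio between spots was 0.06 for LIN37, 0.08 for RBL2, 0.09 for FOXM1, 0.10 for MYBL1, 0.20 for RBL1 and LIN52, and 0.25 for MYBL2. The scatter within a slide was thus smaller than the propagated error for the brighter members and similar to it for the dimmer ones.

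When the repressor subunits are set beside the activating partners, the partners had the lower ratios. The median log2 ratio was -1.55 over the 3 activating partners, -0.86 over the 3 pocket proteins and -0.18 over the 4 MuvB genes, against 0.06 over all 16052 genes with a ratio. Of the 10 members, 1 (MYBL1) was lower by more than 3-fold and none was higher, where 2.75% of all genes were lower and 3.37% higher by that much (441 and 541 genes, or 192 and 143 under the normexp background correction). By more than 2-fold, 3 members were lower, all of them activating partners, and none was higher, where the shares of all genes were 6.42% and 7.97%. This count was 2 under the normexp correction, with 551 of all genes lower and 528 higher in place of 1031 and 1279, and 4 with scaling on the median, where RB1 joined at -1.06. In total 7 of the 10 members had a log2 ratio below 0, as did 45.5% of all genes. Of the 21 pairs of an activating partner and a pocket protein or MuvB gene, the log2 ratios of 20 differed by more than 2 combined spot errors, each time with the activating partner lower. The exception was FOXM1 and RBL1, for which RBL1 minus FOXM1 was 0.52 ± 0.29. The pairs reuse the same 10 ratios, and 92.8% of all genes had a higher ratio than RB1 and 92.0% than RBL1. Most genes would thus lie above the activating partners likewise, and the count is not particular to pocket protein or MuvB genes. This count of pairs holds for the values as scaled here. Under the normexp correction RBL1 minus MYBL2 went from 0.70 to 0.30 and FOXM1 minus RB1 from -0.45 to -0.15. Neither then exceeded its combined spot error of 0.31 and 0.21, and MYBL2 was no longer below RB1.

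**Figure D3:**
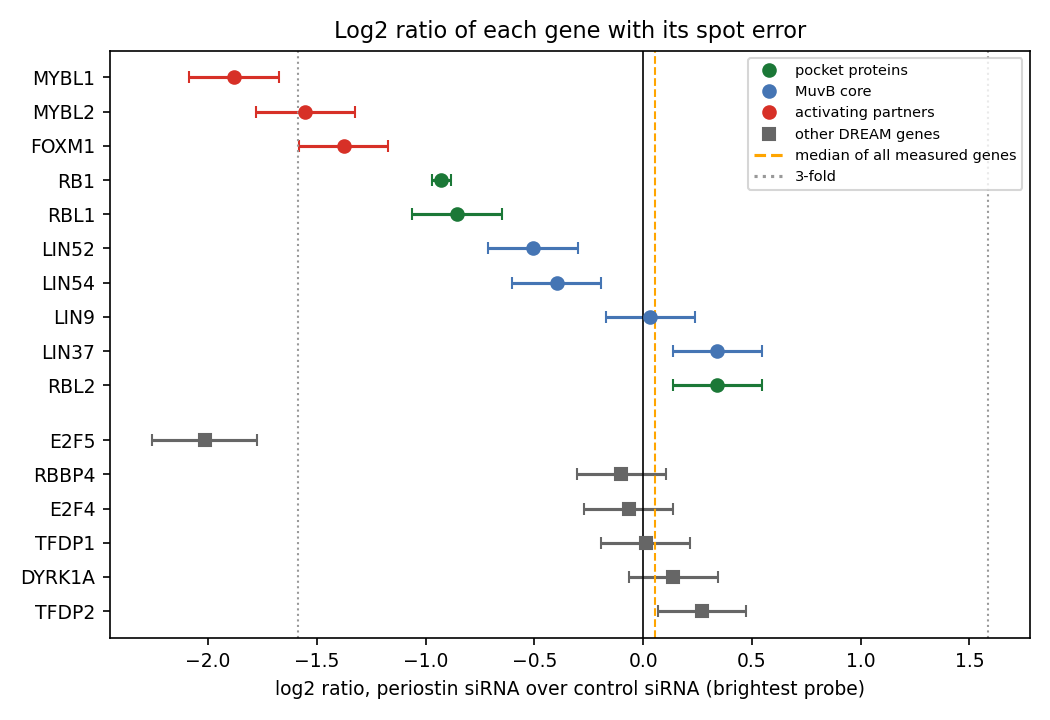
Log2 ratio (knockdown over control cells) for the brightest probe of each member (circles, coloured by group) and of the other DREAM genes (squares); bars are the spot error, the dotted lines mark 3-fold and the dashed line the median of all measured genes. MYBL1, MYBL2 and FOXM1 lie between -1.88 and -1.38, below RB1 and RBL1, and RBL2 and LIN37 lie at 0.34.

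In order of log2 ratio the members ran MYBL1, MYBL2, FOXM1, RB1, RBL1, LIN52, LIN54, LIN9, LIN37 and RBL2. Among neighbours in this order, only FOXM1 and RB1 were apart by more than 2 combined errors (0.45 ± 0.21), where the error of RB1 is the smaller SD over 10 spots. FOXM1 and RBL1, further apart but measured on single spots, were not. Settings that shift all genes alike cannot change this order. With quantile normalization, with loess and with the mean over probes, which can, MYBL1, MYBL2 and FOXM1 each lay below every other member. Under the normexp background correction, which adds an offset to both arrays and draws dim probes towards 0, MYBL2 was at -0.79 and no longer below RB1 at -0.86. FOXM1 minus RB1 was then -0.15, so that the gap between these neighbours was smaller than its combined error. Scaling on the median lowered every log2 ratio by 0.13, which moved RBL2 and LIN37 to 0.21 each.

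**Figure D4:**
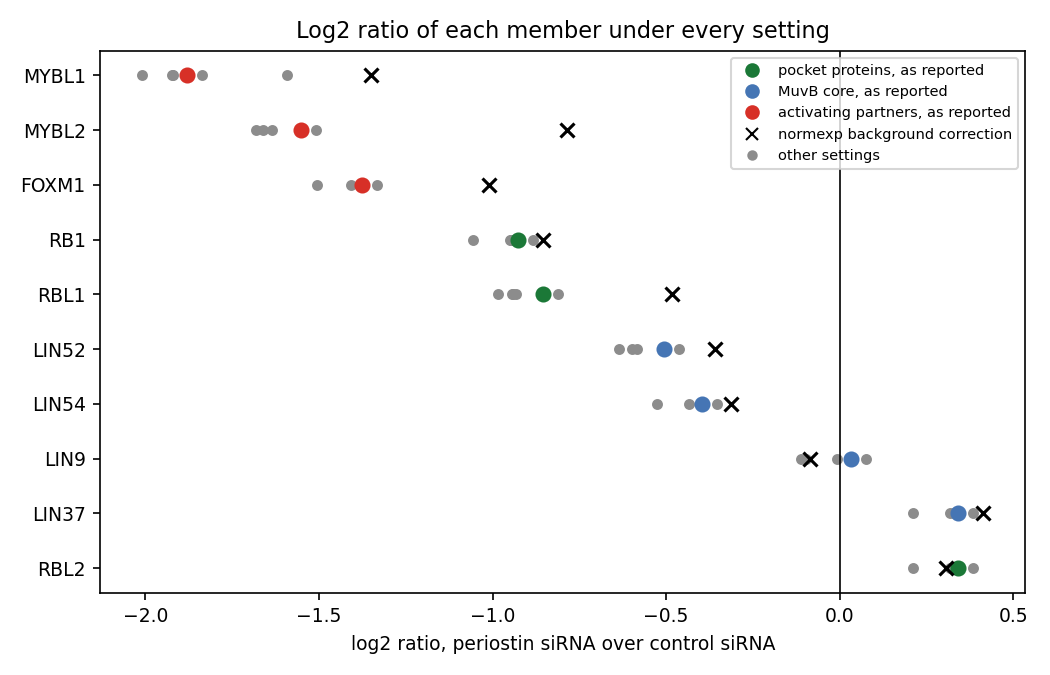
Log2 ratio of each member as reported (coloured), under the normexp background correction (crosses) and under the other settings (grey). RB1, RBL1, LIN52, LIN54 and the activating partners stay below 0 and RBL2 and LIN37 above 0 throughout, while LIN9 crosses 0 and MYBL2 moves most, to -0.79.

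The other genes of DREAM were read from a list of 6. E2F5 was lower, from a signal of 88.6 to 21.9, a log2 ratio of -2.02 ± 0.24. E2F4, the main E2F of DREAM, gave -0.07 ± 0.20. The remaining genes had log2 ratios of -0.10 for RBBP4, the histone-binding subunit of MuvB, 0.01 for TFDP1, 0.14 for DYRK1A and 0.27 for TFDP2. The probes of RBBP4, of TFDP1 and of DYRK1A each differ in sign, so no direction can be given for them. The TFDP2 log2 ratio, from 1 spot, lies within 2 spot errors of 0. E2F5 was thus the only gene of this list more than 2-fold from its control level. Of the whole E2F family 7 of 8 genes could be measured, 7 had a log2 ratio below 0, and the median was -0.69.

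Among the cyclins and kinases that phosphorylate the pocket proteins, 8 of 9 genes had a log2 ratio below 0, with a median of -0.64. Among those that passed the background flag on each array, cyclin A2 (CCNA2) at -2.96 and cyclin D2 (CCND2) at -2.09 were the lowest. Cyclins D1 (CCND1) and D3 (CCND3) were at -0.07 and 0.03. Cyclin E2 (CCNE2) failed the flag with periostin siRNA and has only a bound, at -1.99 or lower. Among the CDK inhibitors, which keep those kinases in check, the median was -0.08 over 7 genes. CDKN1C gave 1.05 and CDKN2C gave -1.62. RB1 and RBL1 thus lay near the middle of the kinase genes. RBL2, at 0.34 ± 0.20, had a higher value than all of them, but within 2 combined spot errors of CCND3 and CCND1.

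The genes that the circuit controls were read from 2 lists written from general knowledge, with earlier results of these arrays known, so that their direction is no independent evidence. Of 34 listed genes of G2 and mitosis 33 could be named and measured, of which 33 had a log2 ratio below 0 and 30 were lower by more than 3-fold, with a median of -3.11. Among genes that passed the background flag on each array, the lowest were UBE2C at -4.85, DLGAP5 at -4.46 and KIF2C at -4.43, and the highest were AURKA at -1.33, ECT2 at -1.24 and CKS2 at -1.14. Of 28 genes of the G1/S transition, 25 had a log2 ratio below 0 and 6 were lower by more than 3-fold, with a median of -0.99. Among those that passed the flag on each array, the values ran from DTL at -3.22, CDC45 at -2.75 and RRM2 at -2.72 to UNG at 0.07, TYMS at 0.25 and PCNA at 0.42. The genes CENPA, NEK2 and TTK of the former list and MCM10, ORC1 and CCNE2 of the latter have only a bound and no place in these orders. With scaling on the median UNG, and CCND3 of the kinase list, come to lie below 0. MYBL2 and FOXM1 thus had ratios within the range of both lists, above the median of the G2/M list and below that of the G1/S list. RB1 and RBL1 were close to the median of the G1/S list. In the RefSeq windows of these lists, the CHR motif was present in 69.4% of 36 windows of G2/M genes and 5.88% of 34 windows of G1/S genes, and the E2F motif in 25% and 64.7%. RBL1 held E2F matches and no CHR match, and it also lacked the NF-Y box that 73.5% of the G1/S windows held.

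**Figure D5:**
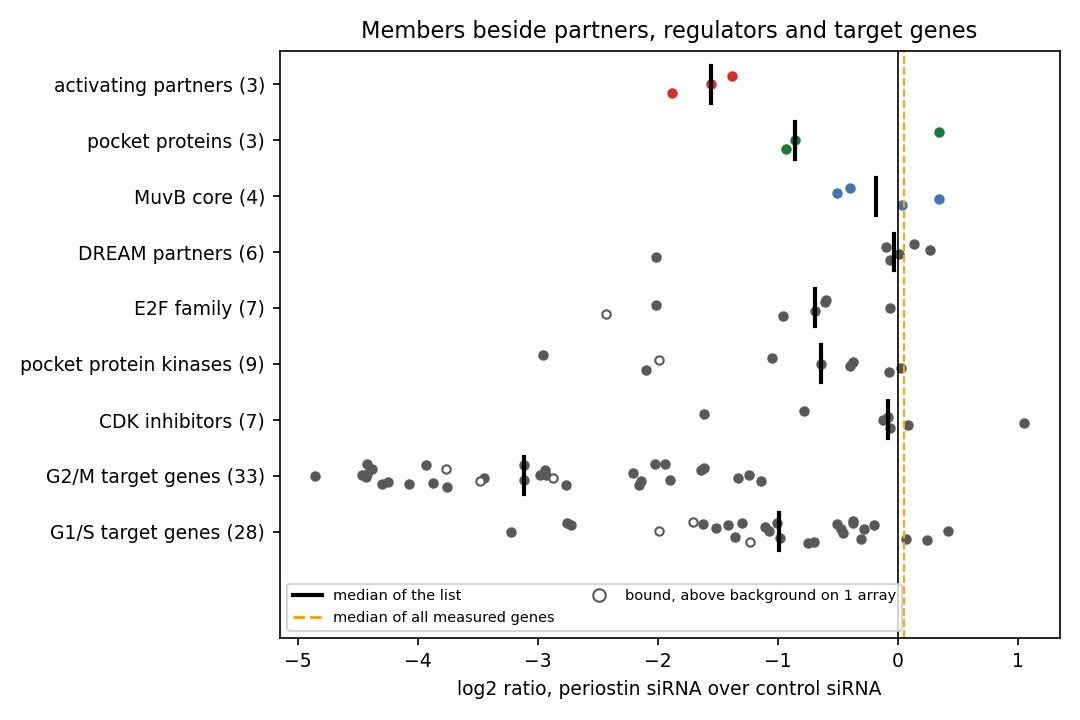
Log2 ratio of each measured gene of 9 lists, with the number of genes in brackets, filled where well above background on both arrays and open where the value is a bound; the black bar is the median of the list and the dashed line that of all measured genes. E2F4 and E2F5 appear in both DREAM and E2F lists, and CCNE1 and CCNE2 in the kinase and G1/S lists. The G2/M list, with a median of -3.11, lies furthest to the left, and the activating partners, at -1.55, lie left of the pocket proteins and MuvB.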

How the data were processed

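The authors deposited 1 scanner file per array, with the processed intensity of each spot. Per the file headers it came from Feature Extraction 11.5.1.1, while the submitters' processing notes name 12.0.3.1. A second deposited table holds intensity values normalized by the authors, and its method is not given in the sources used here. The array was annotated on hg19, and its probes were named through RefSeq accessions (GRCh38.p14), which matched 65.1% of the 58717 non-control spots. No array position is given, because the builds differ.

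Here each processed signal was put on the log2 scale and centred on the 75th percentile of its array (unscaled, 372 in control cells and 383 in knockdown cells). Signals are printed at the common percentile of 377. Repeated spots were averaged after taking log2, a probe passed the background flag where no more of its spots lacked it than had it, and a gene was read from its brightest probe. A fold against an array where the probe failed that flag is a bound, set at the larger of the dim signal itself and that array's lowest passing signal, 7.77 for periostin siRNA on the common scale. Well above background were 58.0% of the spots with control siRNA and 58.9% with periostin siRNA, and 0 were saturated. The number of arrays limits the precision.

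The members and gene lists were chosen with earlier results of these data known, and no test across genes was run. All members, partners and regulators could be named, and of each target list the 3 lowest and 3 highest genes. The scaling and calls were tested on simulated data for this comparison. There 100% of 100 genes changed 4-fold, 0% of 100 genes changed 2-fold and 0% of 15239 unchanged genes passed 3-fold. No change between 2-fold and 4-fold was simulated, so calls near 3-fold, such as MYBL2 at 2.93-fold lower, were not tested. The simulated outcome was not split by brightness, so it does not show how dim probes or bounds behave. The alternatives were normexp with an offset of 50 on the median spot brightness, quantile normalization, leaving out the scaling, centring on the median or on spots that passed the flag on each array, loess with a span of 0.3, the deposited table, the mean over probes, filters on dim and on outlier spots, and thresholds of 2-fold and 4-fold. The shorter E2F core was added after seeing the data. Python 3.11.15 with numpy 2.4.6, pandas 2.3.3 and matplotlib 3.10.9, and R 4.3.3 with limma 3.58.1, were used.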

Additional observations from a re-analysis of the deposited data

How the results depend on the processing

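No paired analysis was possible because there was 1 array for a condition, which also means that no replicate could be left out. Of 150 values recomputed for single members and list medians, 133 kept their sign and moved by no more than the spot error. For the members several settings could change little. Leaving out the scaling, or centring on spots that passed the flag, shifts all genes alike and by a small amount. The deposited table likewise shifted all member ratios by the same very small amount, with FOXM1 at -1.3770 in place of -1.3765. It is thus hardly an independent check. No member spot carried an outlier flag, and the brightest probe of each member passed the background flag on each array. Under the normexp correction RB1, RBL1, MYBL1, MYBL2 and FOXM1 moved by more than their spot error. The sign of LIN9 reversed, to -0.087 under the normexp correction, -0.10 with scaling on the median, -0.0090 after loess and -0.11 for the mean over probes. The normexp correction gave medians of -0.48 for the pocket proteins, -1.01 for the activating partners, -2.004 for the G2/M list and -0.60 for the G1/S list, with MYBL1 at -1.35, MYBL2 at -0.79, FOXM1 at -1.01 and RBL1 at -0.48. With probes well above background on both arrays alone, the G1/S median was -0.75. The count of members lower by more than 3-fold was 0 under the normexp correction and at 4-fold, 2 with quantile normalization, scaling on the median and loess, and 3 at 2-fold. The mean over its probes put MYBL1 at -1.59. Among all genes the normexp correction left 192 lower and 143 higher by more than 3-fold, in place of 441 and 541. The genes lower by that much were 478 with quantile normalization, 525 with scaling on the median and 477 with loess. With the scaling used here, 274 of all genes were lower by more than 4-fold and 1031 by more than 2-fold.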

Other observations

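Other factors that act at the same promoters were measured besides. FOXO3, a forkhead factor of resting cells, had a signal of 4167 in control cells and 9746 in knockdown cells, a log2 ratio of 1.23 ± 0.20, and its other probes gave 1.01 and 1.14. Its sequence is shared with a near-identical copy that these probes may not tell apart. FOXO4 gave 0.65 ± 0.21, and FOXO1 was dim, with 17.2 and 10.1. The NF-Y subunits had log2 ratios of 0.27 ± 0.21 for NFYB, within 2 spot errors of 0, and 0.44 ± 0.20 for NFYC. The NFYA probes gave -0.16 and 0.055 and so no direction. MYB and E2F8 were below background on both arrays.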
